A study of Mus musculus with 10 samples.

Results

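The histone deacetylase genes of the mouse autosomes were followed in 8 deposited peak lists of H3K4me3, trimethylation of lysine 4 of histone H3, a mark of active and poised promoters. They number 9 of the 21883 protein-coding genes examined and were taken by name from RefSeq gene positions on GRCm38.p6, which shares its coordinates with mm10, the build of the lists. Hdac1, Hdac2 and Hdac3 form class I, Hdac4, Hdac5, Hdac7 and Hdac9 class IIa, Hdac10 class IIb and Hdac11 class IV, while Hdac6 and Hdac8 lie on the X chromosome and were outside the choice. Chromatin came from nuclei of dissected hippocampal area CA1 that had been sorted for the neuronal protein NeuN, from male mice aged 3 months. Of the 8 lists, 4 came from CamkdeltaC transgenic mice, which overexpress the CaMKIIδC splice form of a calcium/calmodulin-dependent kinase, and 4 from littermate controls labelled wildtype. The labels do not give the promoter of the transgene; the CaMKIIδC line commonly used to model heart failure drives it in heart muscle cells. The protocol text also describes vorinostat, an inhibitor of zinc-dependent histone deacetylases, in drinking water, but none of the 8 lists carries a drug label, so nothing here bears on the action of the drug. The labels do not say whether each library is a separate animal, and the p-values therefore describe only the spread among these 8 libraries, part of which may be technical.

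Histone deacetylases remove acetyl groups from lysines of histones and other proteins. The class I enzymes are nuclear and work inside corepressor complexes, Hdac1 and Hdac2 in the Sin3, NuRD and CoREST complexes and Hdac3 in the NCoR and SMRT complexes. The class IIa proteins have little catalytic activity of their own; they bind Mef2 transcription factors, and phosphorylation by CaM kinases and other kinases lets Ywha adaptor proteins hold them outside the nucleus. Hdac10 is known as a polyamine deacetylase and Hdac11 as a remover of fatty acyl groups. In mouse hippocampus, Hdac2 and Hdac3 are known as restraints on memory formation.

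In these neurons the class I, class IIb and class IV genes carried H3K4me3 at an end of the gene, and the class IIa genes carried it inside the gene, Hdac5 also at its end. For each gene, windows reaching 2 kb to either side were laid on both annotated ends, and the end better covered by merged peaks on average over the 8 lists was kept. Hdac1, Hdac2, Hdac3, Hdac5, Hdac10 and Hdac11 had a peak in that window in all 8 libraries, which makes 6 of 9 members, against 61.8% of all 21883 genes. Hdac7 and Hdac9 had none there in any library, and Hdac4 had 200 bp in transgenic replicate 2 alone. Peaks farther inside the gene were present in all 8 libraries in Hdac4, Hdac5, Hdac7 and Hdac9, the 4 class IIa genes, and in 12.7% of all genes. The class IIa genes are also the longest members, at 34.4 to 870 kb against 5.40 to 27.6 kb for the others. Class and gene length therefore cannot be told apart here. Hdac4, Hdac7 and Hdac9 belong to the 657 genes (3.00% of all) with internal peaks in all 8 libraries and a peak at the better covered end in at most 1.

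Transgenic and control libraries were not told apart at any of the 9 genes. Covered length was compared on the log2 scale after adding 100 bp, with limma and Benjamini-Hochberg adjustment at 0.05 over all features tested; fold changes on this scale understate differences of thin coverage. Of the 6 members tested at the gene end, 0 were called, and over all 14749 genes tested limma also called 0 (0%), with 608 genes at an unadjusted p under 0.05. Inside the gene, 0 of the 4 members tested were called, and over all 4432 genes tested 0 (0%), with 298 at an unadjusted p under 0.05. Of 26 member regions present in at least 2 libraries 0 were called, against 35 of 72683 regions in all (0.0482%). An unadjusted limma p under 0.05 was reached by 2 of these 26 and by 4585 of the 72683. The groups lay fully apart in bp for 0 members at the gene end, against 2.35% of all genes tested there, for 0 members inside the gene, against 4.67%, and for 0 of the 26 member regions, against 3.43% of all regions tested. Of these regions 16 had a peak in all 8 libraries; over the 23300 such regions of the lists the groups lay apart in 5.41%.

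**Figure D1:**
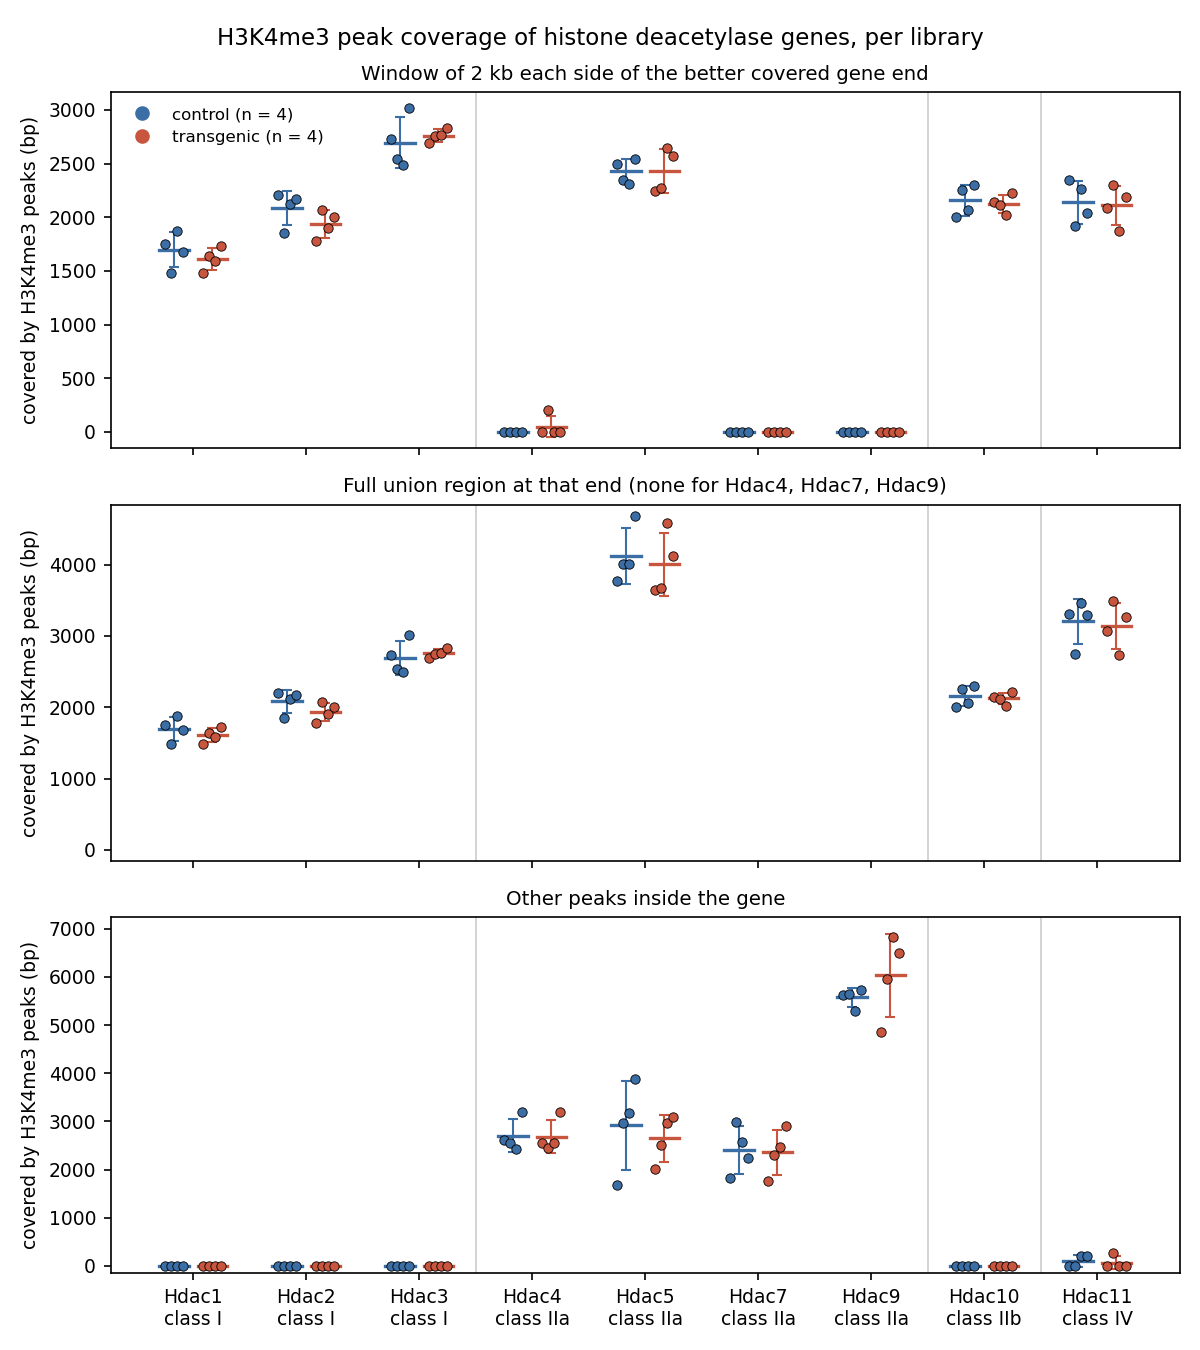
Base pairs covered by H3K4me3 peaks in each library (points; horizontal bars are means and error bars SD, n = 4 per group) for the 9 genes, in the window at the better covered gene end, in the full region there and in other peaks inside the gene. Hdac4, Hdac7 and Hdac9 sit at or near 0 at the gene end and between 1762 and 6824 bp inside the gene, and the groups overlap for each gene.

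The lists themselves held 51903 to 66811 peaks covering 37.5 to 43.1 Mb in controls and 60388 to 102285 peaks covering 45.2 to 57.7 Mb in transgenic libraries. Transgenic replicate 1 stood apart with 102285 peaks, and it shared 46.8% to 51.6% of covered length with the other libraries, which shared 58.2% to 65.2% among themselves. It held the lowest value of the 8 libraries in 7 of the 16 member regions and the highest in 0, against 25.8% lowest and 19.7% highest over all 23300 regions with a peak in all 8. The lists give no read numbers, so sequencing depth is unknown. The neuronal markers Rbfox3, Snap25, Syt1, Map2 and Tubb3 had a peak at a gene end in all 8 libraries, as did 4 of 5 CA1 markers, 2 of 5 astrocyte, 1 of 5 oligodendrocyte and 2 of 5 endothelial markers and 0 of 5 microglial markers. The summed coverage of the 5 microglial markers was 0 to 299 bp in controls and 0 to 482 bp in transgenic libraries.

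Among the class I genes, Hdac1 (gene ID 433759, chr4:129516104-129542646) encodes the catalytic subunit that shares its complexes with Hdac2. Its end region, chr4:129541443-129543367, covered 1755, 1484, 1876 and 1679 bp in control replicates 1 to 4 and 1484, 1635, 1590 and 1730 bp in transgenic replicates 1 to 4. All 4 transgenic values fell inside the control range. The log2 difference in the end window, transgenic minus control, was −0.09 ± 0.08 (SE, n = 4 and 4, limma adjusted p = 1.00). Hdac1 ranked near the middle of the genes with a peak at an end, at a median percentile of 47.4 in breadth over the 8 libraries, while the authors' fold enrichment put its strongest peak at a median percentile of 93.8 within the lists. At its other end a region at chr4:129513285-129515302 held the RefSeq start of the neighbour Marcksl1, which lies 122 bp from Hdac1. That region spread widely, over 933, 1184, 956 and 1642 bp in controls and 503, 1468, 1704 and 1592 bp in transgenic libraries, with the lowest value in transgenic replicate 1; its log2 difference was −0.04 with that library and 0.31 without it, and neither passed (limma adjusted p = 1.00 and 0.700).

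Hdac2 (gene ID 15182, chr10:36974297-37001889) had a compact mark around its start and none elsewhere in the gene. The region, chr10:36973715-36976033, reached from 829 bp before to 1489 bp after the RefSeq start. It covered 2206, 1853, 2120 and 2167 bp in controls and 1776, 2069, 1900 and 2003 bp in transgenic libraries. Transgenic replicate 1 was the lowest of the 8 and control replicate 2 the next, so the groups overlapped. In the end window the log2 difference was −0.12 ± 0.07 (SE, limma unadjusted p = 0.112, adjusted p = 1.00). It was −0.02 with a window of 1 kb and −0.08 with peaks of a −log10 q of at least 5 or without control replicate 1. In the fit over regions it was −0.21, with a 95% interval from −0.39 to −0.02 (limma unadjusted p = 0.0321, adjusted p = 0.702). The covered bp were the same in window and region, and without centring both differences were −0.10. The 300 bases around this start, 250 before and 50 after, are shown because they hold the most CpG dinucleotides of the member windows, 36, with every CpG in capitals (RefSeq, GRCm38.p6, chr10:36974294-36974593, plus strand, 5′ to 3′).
Hdac2 start: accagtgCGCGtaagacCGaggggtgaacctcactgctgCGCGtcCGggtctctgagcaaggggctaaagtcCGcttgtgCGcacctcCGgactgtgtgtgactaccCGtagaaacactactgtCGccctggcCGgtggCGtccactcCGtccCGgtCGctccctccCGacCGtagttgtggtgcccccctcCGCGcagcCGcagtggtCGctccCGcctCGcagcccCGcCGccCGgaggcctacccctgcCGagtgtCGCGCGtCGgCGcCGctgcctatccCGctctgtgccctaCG

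The median over 13070 protein-coding starts with a peak in all 8 libraries was 21 CpG per 300 bases, and 87.1% of those starts had fewer than Hdac2. Peaks covered 187 to 300 of these 300 bases in the 8 libraries. The motif GGGCGG, counted on both strands, occurred 1 time in the Hdac2 window and in 35.7% of the 32851 promoter windows of the table.

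Hdac3 (gene ID 15183, chr18:37936971-37955015) was the broadest of the class I genes. Its end region, chr18:37953813-37956825, covered 2733, 2540, 2489 and 3013 bp in controls and 2687, 2754, 2766 and 2829 bp in transgenic libraries. The transgenic values lay inside the control range and close together, with an SD of 58.2 bp against 237 bp in controls. The end window ranked at a median percentile of 92.2 among genes with a peak there, and the log2 difference there was 0.02 ± 0.05 (SE, limma adjusted p = 1.00). The sign was not stable: it turned to −0.02 with a window of 5 kb to each side. The region also covers the near end of the coding gene Rell2, which lies 38 bp from Hdac3, so the coverage of the 2 genes cannot be told apart. The other end of Hdac3 lies 1348 bp from the gene Diaph1. A region near it, chr18:37934183-37935960, lies outside Hdac3 and over the near end of Diaph1. It covered 1061 to 1228 bp in controls and 905, 1531, 1703 and 1384 bp in transgenic libraries. There 3 of 4 transgenic libraries lay above every control and transgenic replicate 1 below (log2 difference 0.12 ± 0.16, SE, limma adjusted p = 0.938). The difference was 0.28 without transgenic replicate 1 and 0.01 without transgenic replicate 3 (limma adjusted p = 0.700 and 1.00).

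The class IIa genes differed in where the mark lay relative to the starts listed in the RefSeq promoter table. Hdac5 was marked at its annotated 5′ end, Hdac4 at a listed start 15361 bp inside the annotated gene, Hdac7 at a pair of listed starts 12735 and 13007 bp inside, and Hdac9 at a listed start 388206 bp inside. The listed starts at the 5′ end of the annotated Hdac7 and Hdac9 genes, and a further Hdac7 start 29639 bp inside, had 0 bp of peaks within 2 kb in each of the 8 libraries. With the window placed on the best covered listed start instead of a gene end, all 4 class IIa genes had a peak in all 8 libraries. In that comparison limma called 0 of the 6 members with a listed start and 0 of 11739 genes (0%), with 472 genes at an unadjusted p under 0.05, and the groups lay apart for 0 members and for 2.39% of genes. The log2 differences were −0.02 for Hdac4 and for Hdac5, −0.18 for Hdac7 and −0.05 for Hdac9 (limma adjusted p = 0.999 for each).

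**Figure D2:**
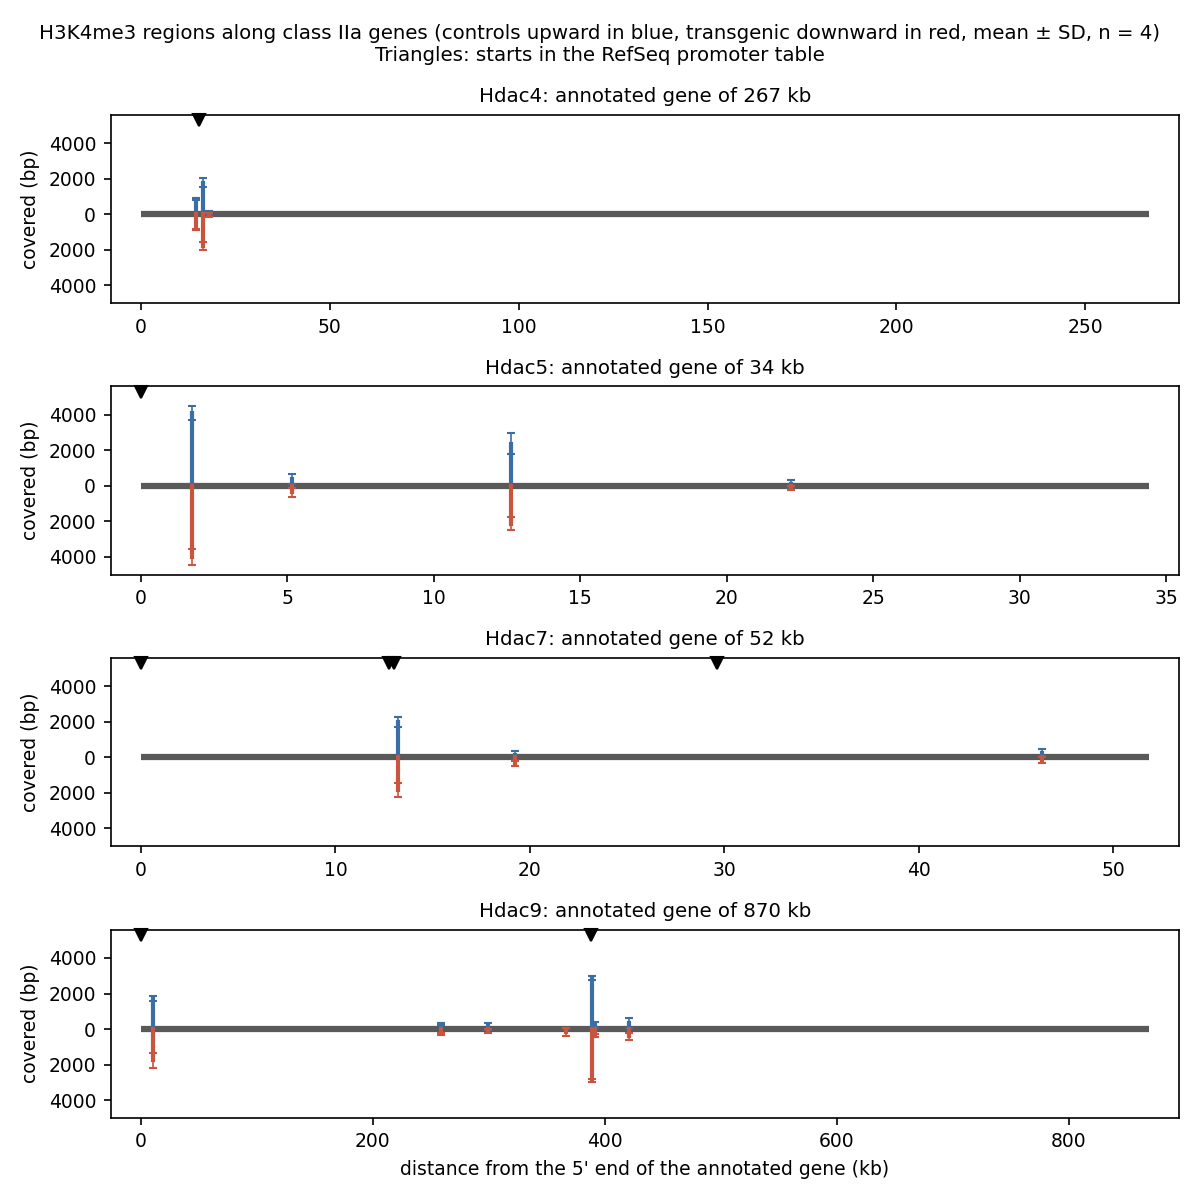
Mean bp covered by H3K4me3 peaks (± SD, n = 4 per group; controls upward in blue, transgenic downward in red) in each region of the 4 class IIa genes, against the distance from the 5′ end of the annotated gene in kb, with triangles at the starts of the RefSeq promoter table. The tallest bars of Hdac4, Hdac7 and Hdac9 stand at a start inside the gene, and the triangles at 0 kb of Hdac7 and Hdac9 have no bar.

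The windows around these starts are shown because CpG content differed widely between marked and unmarked starts of Hdac7, though little in Hdac9. Hdac4 and Hdac5 have no unmarked listed start. Every CpG is in capitals (RefSeq, GRCm38.p6, each 5′ to 3′ on the minus strand). The windows are, in order, chr1:92180292-92180591, chr11:102230123-102230422, chr15:97831446-97831745, chr15:97844453-97844752, chr12:34528840-34529139 and chr12:34917046-34917345.
Hdac4, marked start inside the gene: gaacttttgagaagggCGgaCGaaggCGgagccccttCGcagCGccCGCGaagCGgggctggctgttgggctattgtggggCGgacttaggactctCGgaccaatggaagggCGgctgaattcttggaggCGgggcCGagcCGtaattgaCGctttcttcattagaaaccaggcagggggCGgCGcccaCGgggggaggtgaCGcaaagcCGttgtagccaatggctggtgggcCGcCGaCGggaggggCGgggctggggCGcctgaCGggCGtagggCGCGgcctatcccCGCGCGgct
Hdac5, marked start at the 5′ end: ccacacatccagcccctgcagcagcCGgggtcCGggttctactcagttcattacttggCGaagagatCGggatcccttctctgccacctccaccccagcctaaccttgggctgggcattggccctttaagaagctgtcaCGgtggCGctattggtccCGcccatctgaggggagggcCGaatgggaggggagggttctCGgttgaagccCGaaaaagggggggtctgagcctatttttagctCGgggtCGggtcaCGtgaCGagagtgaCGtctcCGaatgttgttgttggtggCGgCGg
Hdac7, marked start inside the gene: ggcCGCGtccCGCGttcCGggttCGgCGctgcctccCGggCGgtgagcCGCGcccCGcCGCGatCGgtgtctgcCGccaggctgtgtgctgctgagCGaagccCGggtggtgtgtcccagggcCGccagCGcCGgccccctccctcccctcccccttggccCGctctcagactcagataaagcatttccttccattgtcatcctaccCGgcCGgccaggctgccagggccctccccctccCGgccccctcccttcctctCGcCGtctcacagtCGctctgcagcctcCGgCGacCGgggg
Hdac7, unmarked start at the 5′ end: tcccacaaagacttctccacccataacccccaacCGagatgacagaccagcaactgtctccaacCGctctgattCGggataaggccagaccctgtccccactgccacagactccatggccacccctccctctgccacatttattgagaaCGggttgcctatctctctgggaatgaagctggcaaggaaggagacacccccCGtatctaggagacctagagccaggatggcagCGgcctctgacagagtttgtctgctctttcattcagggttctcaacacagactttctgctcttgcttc
Hdac9, marked start inside the gene: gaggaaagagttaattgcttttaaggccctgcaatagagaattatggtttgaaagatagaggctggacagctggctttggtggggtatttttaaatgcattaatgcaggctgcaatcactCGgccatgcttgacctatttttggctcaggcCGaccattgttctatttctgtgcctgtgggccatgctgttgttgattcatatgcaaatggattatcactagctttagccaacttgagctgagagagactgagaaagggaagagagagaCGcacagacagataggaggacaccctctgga
Hdac9, unmarked start at the 5′ end: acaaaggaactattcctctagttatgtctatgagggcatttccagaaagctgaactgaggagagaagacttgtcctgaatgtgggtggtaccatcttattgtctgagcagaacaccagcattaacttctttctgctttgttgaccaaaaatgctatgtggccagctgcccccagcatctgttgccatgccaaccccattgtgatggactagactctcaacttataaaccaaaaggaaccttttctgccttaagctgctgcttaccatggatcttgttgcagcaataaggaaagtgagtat

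The Hdac4 window held 32 CpG, the Hdac5 window 18 and the marked Hdac7 window 31, while a second marked Hdac7 window that overlaps it held 35. The unmarked Hdac7 windows held 6 and 5. Over 6061 protein-coding starts with a peak in 0 libraries the median was 3, and over 13070 starts with a peak in all 8 it was 21. Hdac9 was low at both starts: its marked start held 3 CpG, the median of the starts without a peak, and its unmarked start held 0. Among the starts marked in all 8 libraries, 4.59% held 3 or fewer. The Hdac11 window, the one remaining match among the members, held 22. Matches in the table were found for 6 of the 9 members, Hdac2, Hdac4, Hdac5, Hdac7, Hdac9 and Hdac11. Marked means a peak within 2 kb of the start, not over the whole window. Over the 8 libraries peaks covered 21 to 101 of the 300 bases in Hdac4, 184 to 300 in Hdac5 and 172 to 300 in Hdac9. They covered 0 to 300 in the marked Hdac7 window shown, 205 to 300 in the second and 168 to 300 in Hdac11.

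**Figure D3:**
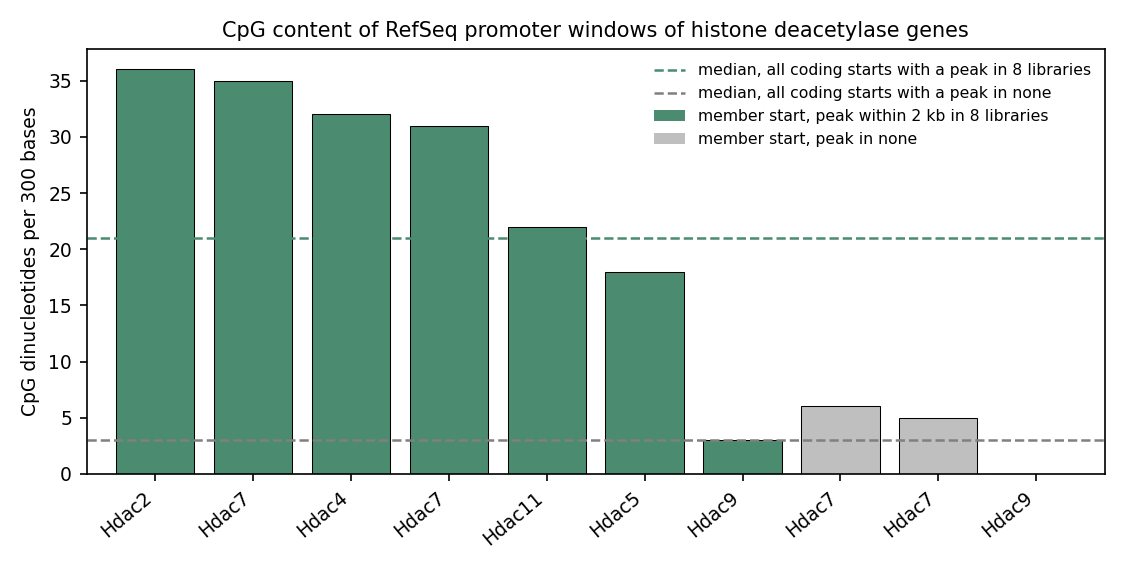
CpG dinucleotides per 300 bases in the 10 RefSeq promoter windows of 6 members (green: peak within 2 kb of the start in 8 libraries; grey: in 0), with dashed lines at the medians of all protein-coding starts of each kind, 21 and 3. The marked Hdac9 start, at 3, stands on the median of the unmarked starts.

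Short motifs, counted on both strands, differed among the windows. GGGCGG occurred 5 times in the Hdac4 window. It occurred 1 time each in the windows of Hdac2, Hdac5 and Hdac11 and in the marked Hdac7 window shown. At least 1 match was found in 35.7% of all 32851 windows. CCAAT occurred 2 times each in the Hdac4 and Hdac5 windows and 1 time in that of Hdac11 (37.4% of all windows). TGACG, a core of the cyclic AMP response element, occurred 3 times in Hdac4, 2 times in Hdac5 and 1 time in Hdac11 (20.8%), and CACGTG 1 time in Hdac5 (7.15%). TATAAA occurred 1 time, in the unmarked Hdac9 window (13.6%), and neither GCATGCG nor CCGGAAG, found in 3.58% and 8.86% of windows, was found in a member. None of these 7 motifs was in the marked Hdac9 window, the second marked Hdac7 window or the unmarked Hdac7 windows.

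Hdac4 (gene ID 208727, chr1:91928779-92195702) encodes a class IIa deacetylase that carries a docking site for CaM kinase II. Its mark consisted of a pair of regions on either side of the listed start at position 92180341. The upstream one, chr1:92180491-92181520, covered 855, 964, 844 and 875 bp in controls and 878, 816, 843 and 865 bp in transgenic libraries. The downstream one, chr1:92178010-92180314, covered 1769, 1598, 1589 and 2116 bp in controls and 1666, 1622, 1716 and 2124 bp in transgenic libraries. Replicate 4 was the highest of its group in the downstream region in both genotypes, and the groups overlapped in both regions. No library had a peak over the 176 bp between them, chr1:92180315-92180490, which hold the start itself. The summed coverage inside the gene had a log2 difference of −0.09, with a 95% interval from −0.32 to 0.14 (limma adjusted p = 0.952).

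**Figure D4:**
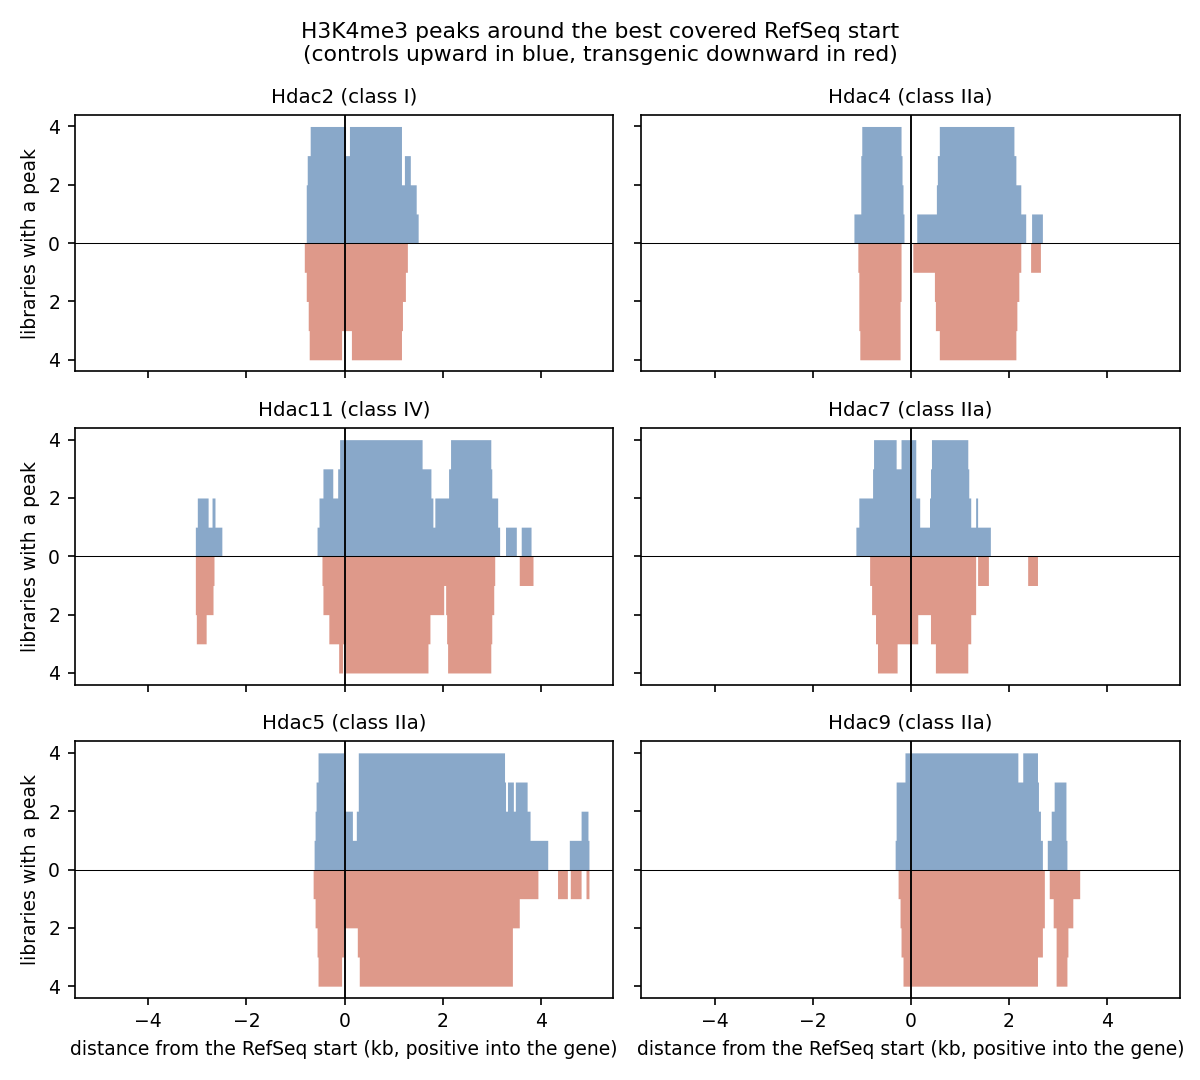
Number of libraries with a peak at each distance from the best covered RefSeq start, in kb and positive into the gene, for the 6 members with a listed start (controls upward in blue, transgenic downward in red, 4 libraries each). Hdac4 shows 0 libraries at the start itself and a region on either side, and Hdac5, Hdac9 and Hdac11 extend mostly into the gene.

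Hdac5 (gene ID 15184, chr11:102195747-102230172) encodes a class IIa deacetylase that leaves the nucleus of neurons upon calcium signals. It had the widest region of all members, chr11:102226035-102230813, from 641 bp before to 4137 bp after the start. The region covered 3772, 4005, 4007 and 4683 bp in controls and 3642, 3670, 4578 and 4123 bp in transgenic libraries. Transgenic replicates 1 and 2 were the lowest of the 8, control replicate 4 was the highest, and the groups overlapped. The log2 difference was −0.15, with a 95% interval from −0.27 to −0.02 (limma unadjusted p = 0.0236, adjusted p = 0.702). The difference was −0.04 without centring. Within the window of 2 kb it was −0.02 ± 0.06 (SE, limma adjusted p = 1.00) and 0.000237 without centring. The region stood at percentile 93.1 or higher among gene end regions in each library. A second region lay 10794 to 14456 bp into the gene, at chr11:102215716-102219378, where the promoter table lists no start. It covered 1670, 2171, 2700 and 2993 bp in controls and 1812, 2012, 2060 and 2621 bp in transgenic libraries. Control replicate 1 was the lowest and control replicate 4 the highest, and the log2 difference was −0.24 with a 95% interval from −0.56 to 0.07 (limma adjusted p = 0.702), or −0.38 without control replicate 1 and −0.16 without control replicate 4. The miRNA gene Mir8101 is annotated within Hdac5 beside its start.

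Hdac7 (gene ID 56233, chr15:97792661-97844502) encodes a class IIa deacetylase best known from blood vessels and thymocytes. Its main region, chr15:97829886-97832631, lay over the listed starts at positions 97831495 and 97831767 and over that of the long noncoding RNA gene Gm33636, so the coverage of the 2 genes cannot be told apart. It covered 1599, 1984, 2188 and 2248 bp in controls and 1272, 1755, 2159 and 2046 bp in transgenic libraries. Replicate 1 was the lowest of its group in both genotypes, and transgenic replicate 1 was the lowest of all. The log2 difference was −0.26 with a 95% interval from −0.54 to 0.01 (limma unadjusted p = 0.0603, adjusted p = 0.702). Without transgenic replicate 1 it was −0.12 and without transgenic replicate 3 −0.35 (limma adjusted p = 0.814 and 0.548). A weaker region at chr15:97824981-97825595 had 237, 343, 301 and 560 bp in the 4 transgenic libraries, 510 bp in control replicate 2 and 0 in the other 3 controls (log2 difference 1.40 ± 0.74, SE, limma unadjusted p = 0.0721, adjusted p = 0.702). Another at chr15:97797884-97798434 was present in 3 controls and 2 transgenic libraries, at 223 to 489 bp where it was present.

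Hdac9 (gene ID 79221, chr12:34047580-34917095) is the longest member, at 870 kb, and encodes a class IIa deacetylase with shorter forms that lack the catalytic domain. It held more covered length inside the gene than any other member, with 5629, 5639, 5295 and 5737 bp in controls and 4857, 5951, 6824 and 6490 bp in transgenic libraries. The transgenic libraries spread on both sides of the controls, with replicate 1 below all 4 and the other 3 above all 4, and the log2 difference was 0.02 (95% interval −0.19 to 0.23, limma adjusted p = 0.999). Its most even region, chr12:34526181-34529211, held the listed start at position 34528889 and reached from 322 bp before to 2708 bp after it. It covered 2892, 2897, 2943 and 2700 bp in controls and 2749, 2941, 2909 and 2949 bp in transgenic libraries, a coefficient of variation of 3.30% over the 8. A second region, chr12:34905665-34908148, began 8947 bp into the gene, where the table lists no start. There controls had 1851, 1637, 1538 and 1871 bp and transgenic libraries 1226, 1701, 2198 and 1932 bp. Transgenic replicate 1 was again the lowest, and the log2 difference was −0.10 with it and 0.04 without it (limma adjusted p = 0.936 and 1.00). A small region at chr12:34658063-34658416 had 200 to 323 bp in all 8 libraries, and 4 more were present in 2 to 7 libraries.

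Hdac10 (gene ID 170787, chr15:89123303-89128700), the shortest member at 5.40 kb, was marked at both ends in all 8 libraries, as were 9.66% of all genes. Its better covered end lay by a neighbour. The region there, chr15:89121542-89124034, held the RefSeq start of Tubgcp6, a gene of the gamma-tubulin complex that lies 94 bp from Hdac10. No start is listed for Hdac10, so neither end is known here as its start. The coverage of this region therefore cannot be credited to Hdac10. There controls had 2004, 2256, 2064 and 2300 bp and transgenic libraries 2140, 2112, 2024 and 2221 bp, with all 4 transgenic values inside the control range. The log2 difference in the end window was −0.04 ± 0.06 (SE, limma adjusted p = 1.00). The authors' fold enrichment ranked the strongest peak of this region, which holds the Tubgcp6 start, at a median percentile of 99.3 within the lists. That was above every other member region. The region at the other end, chr15:89127630-89129364, held the start of the long noncoding RNA gene Gm46530. It covered 1571, 1568, 1431 and 1570 bp in controls and 1532, 1457, 1735 and 1640 bp in transgenic libraries. Control replicate 3 and transgenic replicate 2 were the lowest, and the log2 difference was −0.06 ± 0.11 (SE, limma adjusted p = 0.986).

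Hdac11 (gene ID 232232, chr6:91156670-91174692), the one class IV enzyme, had a broad region at its start, chr6:91156255-91159969, from 560 bp before to 3154 bp after the listed start. It covered 3306, 2750, 3461 and 3298 bp in controls and 3065, 3496, 2735 and 3262 bp in transgenic libraries. Control replicate 2 and transgenic replicate 3 were the lowest of their groups by over 300 bp, and the ranges nearly coincided. The log2 difference was −0.13 ± 0.08 in the region (SE, limma adjusted p = 0.702) and −0.04 ± 0.10 in the end window (SE, limma adjusted p = 1.00). The region ranked at a median percentile of 90.2 among gene end regions, above the window's 73.2. Further inside, 3 libraries had a small peak of 200 to 276 bp, which was below the filter for a test.

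The side of the start on which the mark lay also varied. Of the coverage within 2 kb of the best covered listed start, 89.1% lay downstream in Hdac9, 83.6% in Hdac11, 76.4% in Hdac5, 64.7% in Hdac4, 62.2% in Hdac2 and 57.6% in Hdac7. The pair of marked Hdac7 starts tied in coverage, and the other start of the pair gave 69.7%. Over 10820 starts with a peak in all 8 libraries the median was 65.9% and the interquartile range 53.6% to 76.2%. Hdac9, Hdac11 and Hdac5 lay above that range and the other 3 within it.

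The breadth of the members at the gene end varied little between libraries. The coefficient of variation over all 8 libraries was 5.12% for Hdac10, 6.01% for Hdac3, 6.32% for Hdac5, 7.75% for Hdac2, 8.18% for Hdac1 and 8.36% for Hdac11, against a median of 9.48% and an interquartile range of 6.43% to 14.4% over 13534 genes marked in all 8. The internal sums varied more, by 25.1% in Hdac5, 18.8% in Hdac7, 11.7% in Hdac4 and 10.8% in Hdac9. In order of mean coverage in the end window, Hdac3 (2726 bp) stood above Hdac5 (2428 bp), followed by Hdac10 (2140 bp), Hdac11 (2125 bp), Hdac2 (2012 bp) and Hdac1 (1654 bp). The Hdac10 values are those of the end that holds the Tubgcp6 start. The ranges of Hdac10, Hdac11 and Hdac2 all included 2004 to 2206 bp, those of Hdac3 and Hdac5 overlapped between 2489 and 2642 bp, and Hdac1, at 1484 to 1876 bp, overlapped the lower part of the Hdac2 range.

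The 6 end regions of the members had log2 differences from −0.21 to −0.07, with a median of −0.14, all below 0. Over all 13468 gene end regions the median was −0.08 and 77.8% lay below 0. Without centring each library on its median, the median over all gene end regions was 0.02 with 41.0% below 0, and Hdac3 turned to 0.04 while the other 5 stayed below 0, at −0.10 to −0.02. The median over all 72683 regions moved likewise from 0.03 to 0.13. Of the 16 member regions with a peak in all 8 libraries, 15 lay below 0 with centring, all but that of the Diaph1 end of Hdac3, and 9 without it. Over all 23300 regions with a peak in all 8, 64.2% lay below 0 with centring and 33.5% without it. In the end windows, where centring moved the median of all genes from 0.01 to −0.01, 5 of 6 members lay below 0, against 53.6% of all 14749 genes, with a median of −0.04. Without centring 4 of 6 members and 43.8% of all genes lay below 0, and Hdac5 was at 0.000237.

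**Figure D5:**
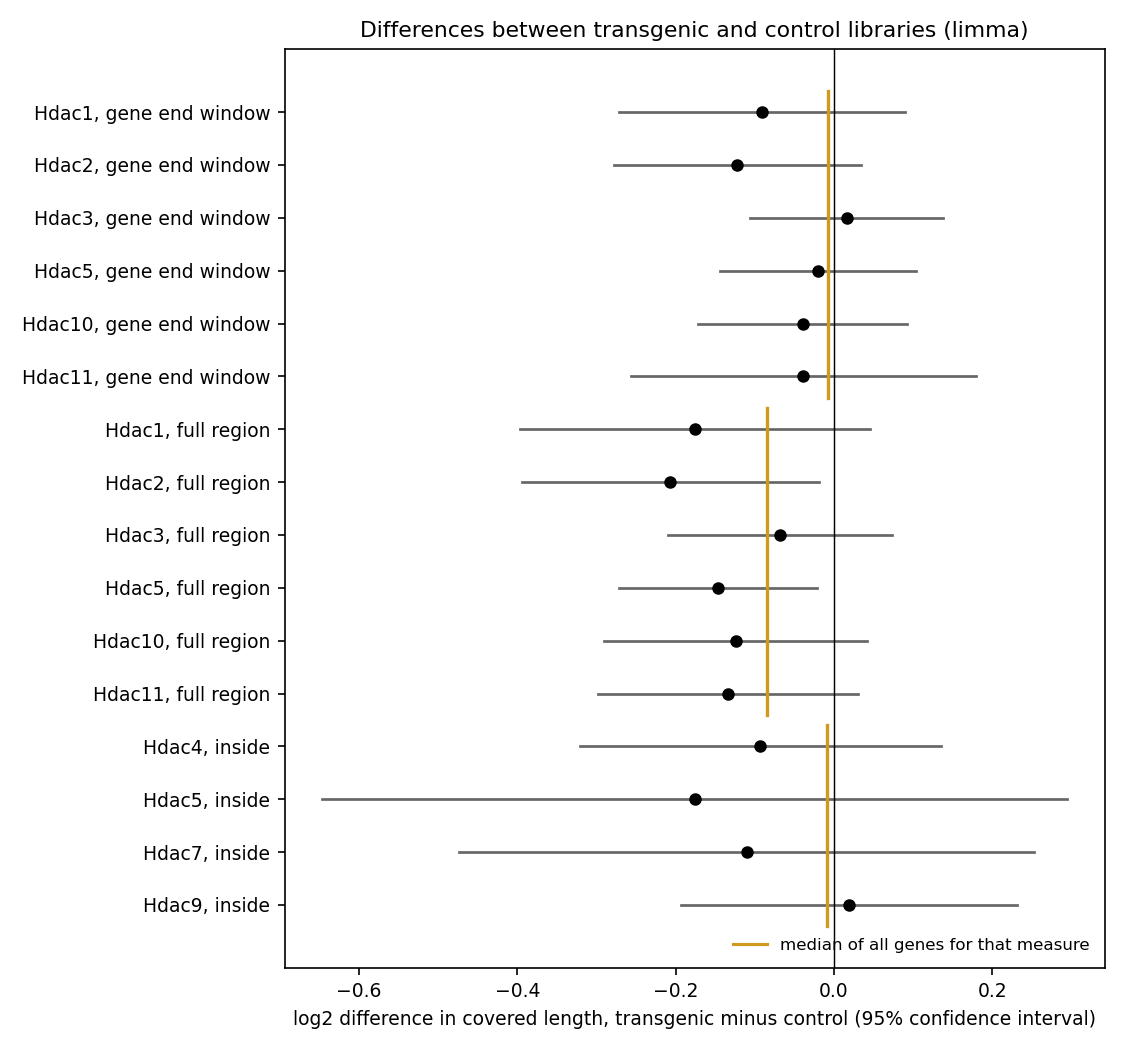
Log2 differences in covered length, transgenic minus control, with 95% confidence intervals (points and lines; limma, 4 libraries per group), in the gene end window, the full region and the other peaks inside the gene; vertical gold lines are the medians of all genes for that measure. The intervals of the Hdac2 and Hdac5 regions lie below 0, from −0.39 to −0.02 and from −0.27 to −0.02, and the other intervals include 0. These 2 of 26 member regions had an unadjusted limma p under 0.05, as had 4585 of all 72683 regions. Without centring the Hdac2 and Hdac5 region differences were −0.10 and −0.04.

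Genes that work with the deacetylases were marked at an end almost throughout, and none was called in either direction. Of 25 genes of the corepressor complexes, all 25 had a peak in all 8 libraries, 10 lay above and 15 below 0 (15 above and 10 below without centring), against 53.6% of all genes tested below 0, with a median log2 difference of −0.01 against −0.01 over all 14749 genes tested. The lowest p belonged to Ncor1, the scaffold that binds Hdac3, at −0.10 ± 0.05 (SE, limma unadjusted p = 0.0482, adjusted p = 1.00), and to Gatad2a, a NuRD subunit, at −0.14 ± 0.06 (SE, limma unadjusted p = 0.0502, adjusted p = 1.00). Ncor1 covered 3310, 3345, 3185 and 3504 bp in controls and 2695, 3165, 3345 and 3429 bp in transgenic libraries, with transgenic replicate 1 far below the others. Of 20 partners of the class IIa proteins (Mef2 factors, Ywha adaptors and kinases), 16 had a peak in all 8 libraries and 4 had none, 3 lay above and 13 below 0, and the median was −0.03; without centring 6 lay above and 10 below. Among them Camk2b, a subunit of CaM kinase II, had 2051, 2032, 1951 and 2155 bp in controls and 1146, 1803, 1991 and 2231 bp in transgenic libraries (log2 difference −0.24 ± 0.14, SE, limma adjusted p = 1.00). Transgenic replicate 1 was again the lowest there, as in the Mef2 factor gene Mef2d (−0.15 ± 0.09, SE, limma adjusted p = 1.00).

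The counterparts of the deacetylases were marked as widely. All 7 sirtuins, the NAD-dependent deacetylases, had a peak in all 8 libraries, with 4 above and 3 below 0 (5 and 2 without centring) and a median of 0.02. Sirt1 spread from 827 to 2638 bp in controls and from 1311 to 2326 bp in transgenic libraries (log2 difference 0.48 ± 0.29, SE, limma adjusted p = 1.00), and Sirt4 stood at 0.13 ± 0.08. All 10 acetyltransferases were marked in all 8, with 5 on either side of 0 (7 above and 3 below without centring) and a median of 0.00. Kat2b covered 1762 to 1958 bp in controls and 1914 to 2312 bp in transgenic libraries (0.14 ± 0.06, SE, limma unadjusted p = 0.0440, adjusted p = 1.00), and Kat6b stood at −0.12 ± 0.10. All 10 readers of acetyl-lysine were marked too, with 4 above and 6 below 0, with centring or without, and a median of −0.03. Brpf1 covered 2780, 2868, 2806 and 2966 bp in controls and 2462, 2688, 2462 and 2847 bp in transgenic libraries, a log2 difference of −0.15 ± 0.05 (SE, limma unadjusted p = 0.0112, adjusted p = 0.993), and Brd8 stood at −0.12 ± 0.06.

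For the members marked at a gene end, the gene on another chromosome whose centred breadth followed that of the member most closely over the 8 libraries was looked up as a description. Those reported here were Aox4 for Hdac1 (Pearson r 0.96), Rad21 for Hdac3 (0.95), Arhgap39 for Hdac5 (0.97), Rad50 for Hdac10 (0.98) and Zfp40 for Hdac11 (0.97). With 14749 genes searched over the same 8 libraries, each with its own depth and peak calling, 6 to 28 genes per member exceeded an r of 0.9.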

How the data were processed

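H3K4me3 peak lists of 4 transgenic and 4 control libraries, grouped by their titles, were analysed; the 2 input or IgG samples, 1 per genotype, were not used here. The submitters' processing notes name the build mm10 and, among tools, limma, DiffBind, MACS2, deepTools (3.0.1), SAMtools (1.3.1), Bowtie2 (2.0.2) and FastQC (0.11.5); roles, settings and the background of each list were not given in the sources used here. The authors deposited 1 list per library in the layout of MACS2: each deposited row holds a position, a score, a fold enrichment and a −log10 p-value and q-value, and these values of the authors served only to rank or filter peaks within a list. No read counts are in the lists, so the depth is unknown, and a deeper or cleaner library can give more and wider peaks.

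Merged peaks were measured in bp in 3 ways: in the 4001-bp window at the better covered gene end, in the full region there (union of the 8 lists, 1 bp of overlap joining peaks), and inside the gene outside both end windows and that region. Features with a peak in at least 4 libraries (regions: 2) were fitted with limma 3.58.1 in R 4.3.3 (trended, robust variance) on log2(bp + 100), after subtracting the library's own median over features present in all 8. The fit was tested on simulated data. Starts and sequences came from RefSeq tables of GRCm38.p6, gene positions from RefSeq. Alternatives covered centring, pseudocounts, peak filters, window and region definitions, variance, the replicate block, the annotated start and each library left out; those for single regions inside genes or at the other end and the counts of list genes without centring were added after seeing the data. The members, the gene lists and the rule for named genes (all members, and the 2 genes of lowest p per list) were chosen with earlier results of these data known. No label says that the replicate numbers pair the libraries, and the main fit used no block. The gene most like Hdac2 in breadth is not reported here.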

Additional observations from a re-analysis of the deposited data

Results flagged for a closer look

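Of 52 groups of 4 libraries examined among the members' values and regions, 2 held a library far from the other 3. Chance alone flags about 1 in 20 such groups if they are separate. These are not: the end window and end region of Hdac1, Hdac2, Hdac3 and Hdac10 held the same bp. The sums inside genes also repeat single regions, so the count cannot be weighed against that share. Transgenic replicate 4 had 3189 bp of peaks inside Hdac4, against 2438 to 2559 bp in the other transgenic libraries. Control replicate 4 was also the highest of its group there, at 3198 bp. Control replicate 3 had 1431 bp in the region at the Gm46530 end of Hdac10, against 1568 to 1571 bp in the other controls. In transgenic libraries the same region ran from 1457 to 1735 bp.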

How the results depend on the processing

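The 26 log2 differences of members were recomputed under 17 to 19 alternative settings each, which gave 467 values. Of these values 443 kept their direction, 24 turned sign and 0 became called, the lowest limma adjusted p being 0.364. Settings that change only the variance, the block or the filter on libraries repeat the main log2 difference exactly. Their directions were fixed in advance, so the 443 overstates how far direction was tested. The count of members called was 0 under every setting run. Without centring, the difference turned to 0.000237 for Hdac5 at the gene end, and among regions to 0.0606 for the Marcksl1 end of Hdac1, 0.0369 for Hdac3, 0.0121 for the downstream region of Hdac4, 0.0143 and 0.00687 for the Hdac9 regions beginning at 34526181 and 34905665, and 0.0468 for the Gm46530 end of Hdac10. A 5-kb window gave −0.0248 for Hdac3. Hdac9 inside the gene turned to −0.0566 with peaks of −log10 q of at least 5 and −0.0375 with equal numbers of top-ranked peaks. Leaving out 1 library at a time, the differences ranged from −0.0150 to 0.0434 for Hdac3, −0.0498 to 0.0125 for Hdac5 and −0.0883 to 0.0264 for Hdac11 at the gene end, from −0.204 to 0.315 for the Marcksl1 end of Hdac1, from −0.211 to 0.0448 for the Hdac9 region at 34905665 and from −0.0410 to 0.0867 for Hdac9 inside the gene. Over all regions, the 35 calls became 118 without centring, 15 with a pseudocount of 10 bp, 0 with top-ranked peaks, 3 with −log10 q of at least 5, 16 with peaks up to 500 bp apart joined, 871 with no filter, 296 with ordinary variance and 0 with a peak in at least 4 libraries, and 15 (without transgenic replicate 1) to 54 (without control replicate 3) with 1 library left out. Over all genes, ordinary variance gave 5 calls at the gene end and 8 inside; inside, no centring, no filter and a pseudocount of 10 bp gave 1 call each, and leaving out a library 0 to 3, the 3 without control replicate 3 or transgenic replicate 1. The causes of these changes were not tested. With the replicate number as a block, 0 regions were called and no member's call changed. With equal replicate numbers in both groups the block cannot move a log2 difference, so direction was not tested by it. The deviations of same-numbered libraries correlated at −0.06, −0.13, −0.16 and 0.17 at the gene end. Inside the gene they correlated at −0.43, −0.44, −0.43 and −0.28. With 4 libraries per group these values cannot decide whether the numbers pair the libraries. Depth is unknown, so narrow differences in breadth cannot be resolved beyond the intervals given.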
